A study of Homo sapiens with 3 samples.

Results

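MAVS, RELA, NFKB1, IRF3, MB21D1 (now CGAS), TMEM173 (now STING1), TRAF3, IKBKB and TRIM56 are 9 genes that sense foreign or misplaced nucleic acid or pass that signal on. They were followed by name, older symbols included, through tables of the RNA sites of MATR3 (matrin 3), a nuclear RNA-binding protein. Of the 13557 gene names with a site in any library, 7 were among these 9 genes, and their sites numbered 307 of 388807. The sites came from PAR-CLIP with an antibody against MATR3 in HEK293, an established human embryonic kidney line, wild type and with no treatment. There were 3 biological replicates, all of 1 group, and no control library was analysed here. In PAR-CLIP a photoreactive uridine analogue in the RNA is crosslinked to the bound protein, and the crosslinked base is read as a T-to-C change. A cluster is a stretch of overlapping reads with such changes, called by the authors in each replicate separately.

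In the DNA branch of this defence, cGAS binds DNA in the cytosol and makes a cyclic dinucleotide that activates STING. In the RNA branch, RIG-I-like receptors activate MAVS on mitochondria. Both branches lead through ubiquitin ligases and kinases to IRF3, which turns on type I interferon genes, and to NF-kB, whose subunits include the products of RELA and NFKB1.

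The replicates held 133088, 131679 and 124040 clusters with 1649124, 1506682 and 1532602 reads. The 9 genes took 97, 120 and 90 of the clusters and 1274, 1266 and 1253 of the reads, or 0.0880%, 0.0953% and 0.0922% of the reads in gene-annotated clusters. Every listed cluster had at least 4 reads and at least 2 converted positions, so sites under those limits were not detectable. The reads carry no molecular identifiers. Intervals on shares of reads take every read as independent and cover counting error only. The 9 genes had 2.92, 2.40 and 2.95 reads per distinct read in replicates 1 to 3. The intervals are therefore narrower than counts of distinct reads would give. No measure of RNA abundance was analysed, so the reads on a gene join how much of its RNA was present with how much of it was bound, and these cannot be told apart. For the same reason the cell line label was not checked against marker genes.

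The sites on which the results below turn are shown as up to 30 bases from the middle of each, 5′ to 3′ on the strand of the gene, read from hg38. Capitals mark runs of at least 4 bases that are all C or T. The sites on MAVS and TRAF3 are those covered by a cluster in all 3 replicates, and then the 3′ UTR sites of MAVS covered in 2. Site 1 of MAVS is chr20:3848755-3848819 and site 2 is chr20:3848953-3849011, both on the plus strand in intron 1. The TRAF3 site is chr14:102818602-102818635, on the plus strand, also in intron 1.
MAVS intron 1 site 1: TTCTggagTCCCTTCTgagccactgCTCCT
MAVS intron 1 site 2: ctgggctgtggCCTCCTTactggTCTCCCa
TRAF3 intron 1 site: taCCTCTCCTTTCCCCaTTCCCCCgCTCCC
MAVS 3′ UTR, replicates 1 and 3, chr20:3866212-3866249: CCCCTTgTCCCTTTCTTggggattgtggag
MAVS 3′ UTR, replicates 1 and 2, chr20:3866807-3866856: CCTCTTTCCCTCCCCTCTggTCTCCaTTCT
MAVS 3′ UTR, replicates 1 and 2, chr20:3867066-3867101: tggccactgCTTCTCCCaTCTCTCTCCTgc
C and T made up 67.7% of MAVS site 1, 69.5% of site 2 and 79.4% of the TRAF3 site, and 57.1% ± 0.875 on average over all clusters (SD, n = 3). Over the whole of these sites, which reach beyond the printed bases, the longest unbroken C or T run was 10, 7 and 14 bases. Of all clusters within 5 bases of the same length, 25.3%, 58.2% and 3.77% held a run at least as long. The MAVS 3′ UTR site at 3866807 held a run of 21 bases, part of it outside the printed stretch, and 0.570% of clusters of like length held one at least as long. The MAVS 3′ UTR sites at 3866212 and 3867066 had longest runs of 10 bases each. Runs at least as long were held by 15.7% and 15.3% of clusters of like length.

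On RELA no stretch was covered in more than 1 replicate, so the leading 3′ UTR cluster of each is shown in the same way, on the minus strand.
RELA 3′ UTR, replicate 1, chr11:65653729-65653789: gaCTTCCTTgCTCTCCCTCTTCTCaagtgc
RELA 3′ UTR, replicate 2, chr11:65653867-65653966: gcactggcattgTCCCTgtgcctaacacca
RELA 3′ UTR, replicate 3, chr11:65654046-65654116: CTCTggggTCCCCCaTCCCCaTCCTCCagc
Over the whole clusters the longest C or T runs were 14, 7 and 11 bases, and 5.91%, 77.0% and 19.9% of clusters of like length held runs at least as long. Each of the printed stretches, those of MAVS and TRAF3 included, had 1 exact copy in hg38.

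The RNA motif known for MATR3 reads ATCTT in DNA letters. It was searched in the clusters on the strand of the RNA alone. It stood in 2 of the 3 clusters of MB21D1, shown with the motif in capitals.
MB21D1 intron 3, replicate 1, chr6:73434042-73434076: aattagtctcaatATCTTttagggcaagtt
MB21D1 intron 3, replicate 2, chr6:73439652-73439690: ctttccttcATCTTcccattccactgctcc
Of clusters within 5 bases of the same length, 6.93% and 7.29% held it. Over the 9 genes it stood in 21 of 307 clusters, or 7.01% ± 1.76 by replicate, and in 9.34% ± 0.394 of all gene-annotated clusters (SD, n = 3). The members' share was below that of all gene-annotated clusters in each replicate, with 8, 6 and 7 clusters behind it. None of the MAVS and TRAF3 sites common to 3 replicates lay in a cluster with these letters.

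MATR3 clusters were found in all 3 replicates on 5 of the 9 genes: MAVS, TRAF3, IKBKB, RELA and NFKB1. Of the 13557 gene names that occur in at least 1 table, 65.7% occurred in all 3; the 5 members are to be read against that as 5 of the 7 that occur. Of all 20018 protein-coding genes in the annotation, with or without a cluster, 40.7% had clusters in all 3, beside 5 of all 9 members. With at least 3 converted positions required NFKB1 lost its place among the 5, with no such cluster in replicate 1, and with at least 2 clusters per replicate RELA did, with 1 in replicate 3. MB21D1 had clusters in 2 replicates and TRIM56 in 1. IRF3 and TMEM173 had none on their own strand in any. Levels are given as reads in a gene's clusters per kb of gene, per 1000000 reads in gene-annotated clusters.

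MAVS held the most reads per kb, at 5.30, 7.73 and 6.15 in replicates 1 to 3. TRAF3 followed with 4.16, 3.70 and 4.30, and RELA with 3.06, 3.57 and 2.09. IKBKB held 1.80, 1.83 and 1.78. The ranges of these 4 genes did not overlap from one to the next in this order, and each lay above every replicate of NFKB1, which held 0.185, 0.558 and 0.311. NFKB1, TRIM56 and MB21D1 overlapped one another and have no order.

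Among 8469 genes with clusters in all 3 replicates and a known length, the median was 1.54 reads per kb. MAVS, at 6.39 ± 1.23 (SD, n = 3), stood at percentile 87.3 of those genes. TRAF3 stood at percentile 77.2, RELA at 68.2, IKBKB at 54.3 and NFKB1 at 17.1. Without division by length the order was another one: TRAF3, a gene of 134.052 kb, had 543 ± 42.1 reads per 1000000 and RELA, of 9.492 kb, had 27.6 ± 7.11 (SD, n = 3). The replicates were closest on IKBKB, with a coefficient of variation of 1.54%, and among these 5 genes farthest apart on NFKB1, with 54.1%. IKBKB had 46, 58 and 48 distinct reads. By distinct reads its level per 1000000 was 101 ± 5.48, a wider spread than the 110 ± 1.70 by all reads (SD, n = 3).

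**Figure D1:**
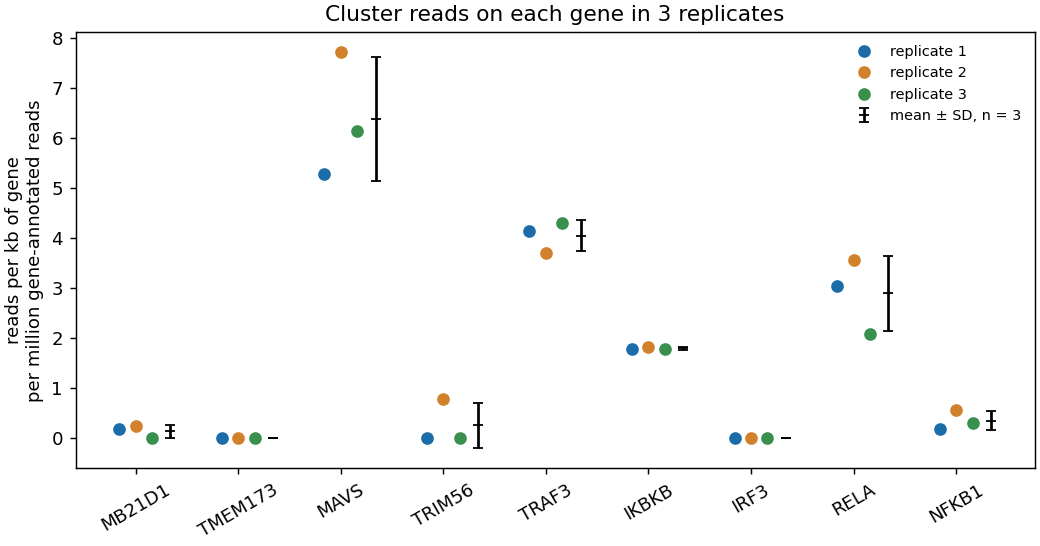
Reads in the clusters of each gene per kb of gene and per 1000000 gene-annotated reads (vertical axis), with 1 point per replicate and a bar for the mean ± SD of 3. MAVS lies highest, at 5.30 to 7.73, and TMEM173 and IRF3 lie at 0 in all 3.

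The sensor gene MB21D1, which encodes cGAS, held little signal. Its clusters numbered 1, 2 and 0, with 10, 13 and 0 reads. All 3 lay in introns, 2 in intron 3 and 1 in intron 2, and none overlapped another. The replicate 1 cluster rested on 2 distinct reads. A gene with so few reads stands near the listing limit, and its absence from replicate 3 is not shown to differ from the other libraries.

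TMEM173 encodes STING, the membrane adaptor downstream of cGAS. It had no listed cluster on either strand in any replicate, and it was the only one of the 9 genes of which this was true. It spans 7403 nt.

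MAVS, the mitochondrial adaptor of the RIG-I-like receptors, had 18, 24 and 18 clusters with 225, 301 and 245 reads. The gene spans chr20:3846799-3876123 on the plus strand. Intron clusters held 143, 239 and 179 reads, 3′ UTR clusters 45, 52 and 57, and coding clusters 37, 10 and 9. Introns thus took most MAVS reads in every library, 72.0% ± 7.98, with 20.2% ± 3.0 in the 3′ UTR (SD, n = 3).

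Within MAVS the reads gathered in intron 1, 7654 nt long. It held 116, 172 and 132 reads, which were 51.6%, 57.1% and 53.9% of the gene's reads. Per kb this was 15.2, 22.5 and 17.2 reads, and the other introns together held 2.73, 6.77 and 4.75. The lowest replicate of intron 1 exceeded the highest of the other introns pooled, but not of each one alone. Intron 5 held 3.26, 21.7 and 10.3 reads per kb, and its replicate 2 stood above intron 1 of replicates 1 and 3. The short intron 6 held 12.3, 13.4 and 14.5, below the range of intron 1. Of the 22 clusters in intron 1, 20 fell in 1 stretch of 2146 nt, chr20:3847748-3849893, in which no gap between neighbouring clusters exceeded 1000 nt. A higher read density in intron 1 than in the other introns pooled, in every replicate, was found in 35.0% of the 7209 protein-coding genes with intron reads in all 3. Of the 4 members with intron clusters in all 3, MAVS and TRAF3 had it, and IKBKB and NFKB1 did not.

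MAVS site 1, the 65 nt stretch that starts 1956 nt from the gene start, was covered by clusters of 156, 107 and 148 nt. They held 58, 48 and 68 reads and 21, 22 and 23 distinct reads, and were the largest MAVS cluster in every replicate. They took 25.8%, 15.9% and 27.8% of the gene's reads, a mean of 23.2% ± 6.32 (SD, n = 3). Among all clusters of their own library they stood at percentiles 99.0, 98.6 and 99.3 by reads. Site 2, 59 nt long, held 22, 31 and 23 reads and ranked next in every replicate. The 2 sites together held 35.6%, 26.2% and 37.1% of MAVS reads.

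At MAVS site 1, T-to-C changes were carried by 94.8% of reads in replicate 1 (95% Wilson interval 85.9 to 98.2), 91.7% in replicate 2 (80.4 to 96.7) and 64.7% in replicate 3 (52.8 to 75.0). Replicate 3 lay below the intervals of the others, which count all reads, while 21, 22 and 23 reads were distinct. In the rest of MAVS the share was 89.2%, 87.0% and 93.8%, with no such drop in replicate 3. The site exceeded the rest by 5.61 and 4.71 percentage points in replicates 1 and 2, and the difference was -29.1 in replicate 3. The mean difference was -6.25 ± 19.8 (SD, n = 3), smaller than its spread, with 2 of 3 above 0 (exact two-sided sign-flip p = 1; the smallest that 3 replicates allow is 0.25). Without replicate 3 it was 5.16. The shared MAVS site was singled out when the genes were chosen, and 3 replicates cannot give a p below 0.25. The test therefore decides nothing here.

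At site 2 the shares were 90.9%, 80.6% and 100%, so the low value of replicate 3 was not seen there. The cluster of replicate 3 at site 1 begins and ends upstream of those of the other replicates.

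On MAVS 25 of 60 clusters, or 41.7%, overlapped a cluster of another replicate, the highest share of the 9 genes, with no test of the difference. The shared MAVS intron site was singled out when the genes were chosen, so a high share on this gene is a description. Of the 60 clusters, 20 lay in the stretch of 2146 nt in intron 1, and the part of such close spacing was not tested. The 3′ UTR, 9971 nt long in the canonical transcript, carried 17 clusters, of which 6 were found in another replicate and none in both others. A coding pair in exon 6 was shared by replicates 1 and 3, with 15 and 9 reads. Shared and unshared MAVS clusters differed in size, with medians of 14.0 and 8 reads.

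**Figure D2:**
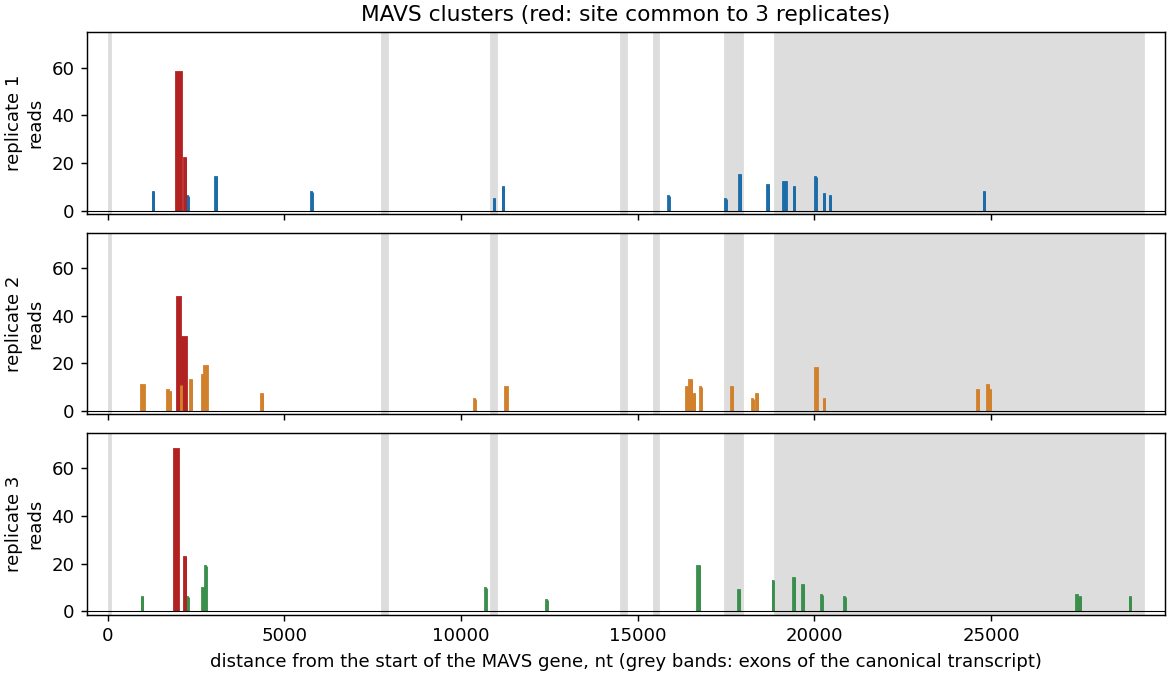
Reads per MAVS cluster (vertical axis) by distance from the gene start in nt, 1 panel per replicate; grey bands are exons of the canonical transcript and red bars are clusters of the 2 sites common to 3 replicates. The tallest bar in every panel is site 1, at 58, 48 and 68 reads.

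TRIM56, an E3 ubiquitin ligase that acts on the cGAS-STING branch, had 2 clusters, both in the 3′ UTR and both in replicate 2, with 8 and 5 reads. Replicates 1 and 3 listed none. The clusters rested on 2 and 1 distinct reads.

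TRAF3, a ubiquitin ligase that couples both branches to interferon induction, carried 169 of the 307 member clusters, with 57, 59 and 53 by replicate and 807, 659 and 784 reads. The gene spans chr14:102777449-102911500 on the plus strand. Introns held 97.6%, 95.6% and 98.3% of its reads. Intron 1, 52658 nt long, held 549, 441 and 656 reads, or 10.4, 8.37 and 12.5 per kb, against 3.25, 2.57 and 1.56 in the other introns pooled. As on MAVS, those ranges did not overlap. Intron 10 taken alone held 13.3, 4.27 and 8.54 reads per kb, a range that overlapped that of intron 1 and stood above it in replicate 1.

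The largest TRAF3 clusters changed place between libraries. Replicate 1 had its largest at chr14:102819197-102819485 with 97 reads, and replicate 3 had its largest at chr14:102819090-102819494 with 133 reads. These overlapped over 289 nt, and replicate 2 listed no cluster there. Its own largest, chr14:102818594-102818708 with 49 reads, lay upstream and covered the site common to all 3. At that 34 nt site replicates 1 and 3 had 11 and 9 reads, which ranked 24 and 29 among the TRAF3 clusters. Distinct reads at the site numbered 3, 20 and 3 in replicates 1 to 3. T-to-C changes were carried there by 81.8% of reads (52.3 to 94.9), 85.7% (73.3 to 92.9) and 100% (70.1 to 100). These 95% Wilson intervals overlapped, and with so few distinct reads the overlap does not show that the replicates were alike.

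**Figure D3:**
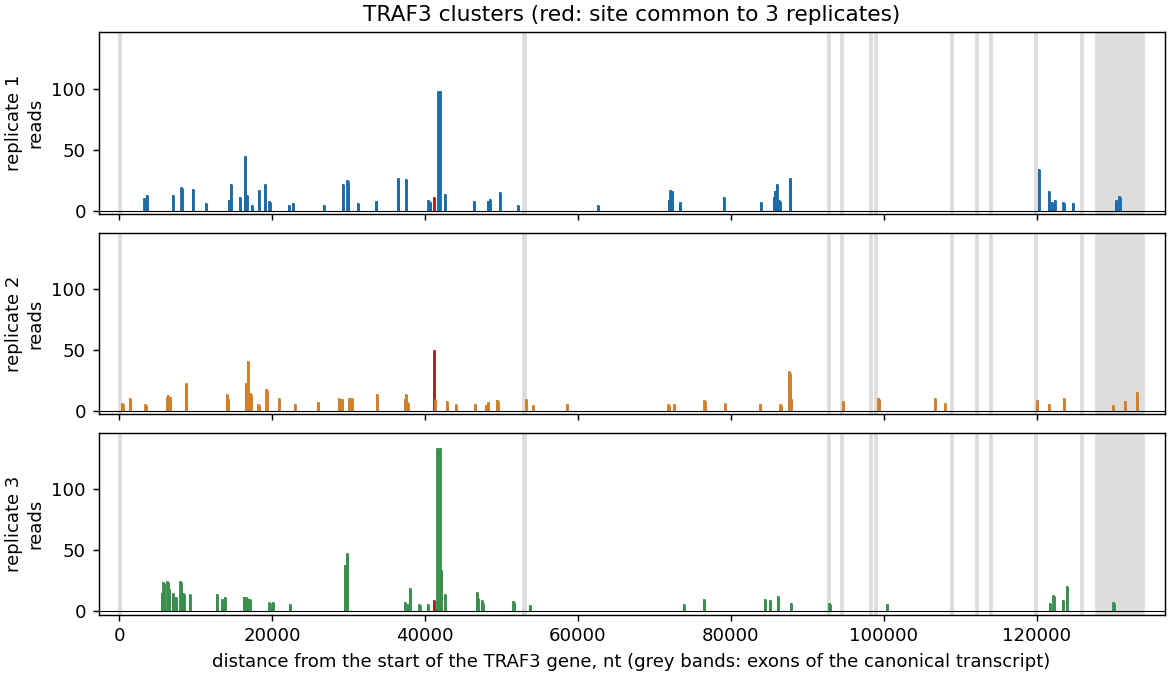
Reads per TRAF3 cluster (vertical axis) by distance from the gene start in nt, 1 panel per replicate; grey bands are exons of the canonical transcript and red bars are clusters of the site common to 3 replicates. The tall bars of replicates 1 and 3, at 97 and 133 reads, have no counterpart in replicate 2.

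A site common to all 3 replicates was present on MAVS and TRAF3, 2 of the 5 members with clusters in all 3. Among all genes with clusters in all 3 replicates, 19.3% had one. MAVS and TRAF3 were also the members with most clusters, 60 and 169, and the part of cluster number in this was not tested. The shared MAVS intron site was singled out when the genes were chosen. The 2 of 5 is therefore a description and no test against the 19.3%.

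IKBKB encodes IKKβ, the kinase that marks the inhibitors of NF-kB for degradation. It had 14, 17 and 13 clusters with 159, 149 and 148 reads. All were in introns except 2 in replicate 2 that the files class as coding, of which 1 lay in the 3′ UTR of the canonical transcript. Intron 5 carried 18 clusters, with 92, 46 and 63 reads.

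The even read totals of IKBKB did not come from the same sites. Of its 44 clusters, 8 overlapped one of another replicate, and no site was common to all 3. Replicates 1 and 3 shared a 27 nt intron 5 cluster with the same start and end, 29208 nt from the gene start, with 6 and 11 reads. The largest clusters held 30, 17 and 24 reads and lay in introns 5, 2 and 19.

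IRF3, the transcription factor that induces interferon genes, had no cluster on its own strand. Within its bounds, chr19:49659569-49665875 on the minus strand, clusters lay on the opposite strand in every replicate. They numbered 6, 5 and 8 with 89, 99 and 99 reads. BCL2L12, a gene on that strand, overlaps the start of IRF3 by 734 nt, and the files give its name to 0, 4 and 3 of these clusters. The other 12 of 19 have no annotation. More reads on the opposite strand in every replicate was found in 6.43% of 13151 protein-coding genes with clusters on either strand. It was found in 1 of the 9 genes here, of which TMEM173 alone had no cluster on either strand.

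RELA encodes p65, the main activating subunit of NF-kB. It had 3, 5 and 1 clusters with 42, 45 and 27 reads. Its 3′ UTR held 32, 31 and 27 of these reads, or 76.2%, 68.9% and 100%. The mean share was 81.7% ± 16.3 (SD, n = 3), against 7.02% ± 0.566 of reads in all gene-annotated clusters. RELA was the 1 member with most of its reads in the 3′ UTR in each replicate, and 2.52% of the genes with clusters in all 3 met that condition. Its 3′ UTR sites were singled out when the genes were chosen, so this is a description and no test against the 2.52%. The shares rest on 1, 3 and 1 clusters in the 3′ UTR, and that of replicate 3 on 6 distinct reads.

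The RELA 3′ UTR is 777 nt long in the canonical transcript, chr11:65653601-65654377. It held 41.2, 39.9 and 34.7 reads per kb, and the introns held 0, 2.06 and 0. The difference was 37.9 ± 3.22 reads per kb (SD, n = 3). It is given as a description with no test, since the 3′ UTR sites of RELA were singled out when the genes were chosen, and in 2 replicates it is a difference from 0.

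The replicates gave RELA the same class and not the same bases. The 5 clusters of the 3′ UTR fell within 620 nt, and those of different replicates were parted by 77, 79 and 62 nt. None of the 9 RELA clusters overlapped one of another replicate. The leading 3′ UTR clusters, whose sequences are given above, held 32, 15 and 27 reads.

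RELA also carried clusters on the opposite strand, 5, 7 and 6 of them with 39, 77 and 39 reads. All 18 are without annotation, and all lie outside its 3′ UTR. SIPA1, a gene on that strand, ends 2681 nt before the RELA bounds. Opposite reads exceeded those on the RELA strand in replicates 2 and 3 and fell short of them in replicate 1. TRAF3 was the only other member with opposite clusters besides IRF3, at 1, 1 and 0 with 5 reads each.

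**Figure D4:**
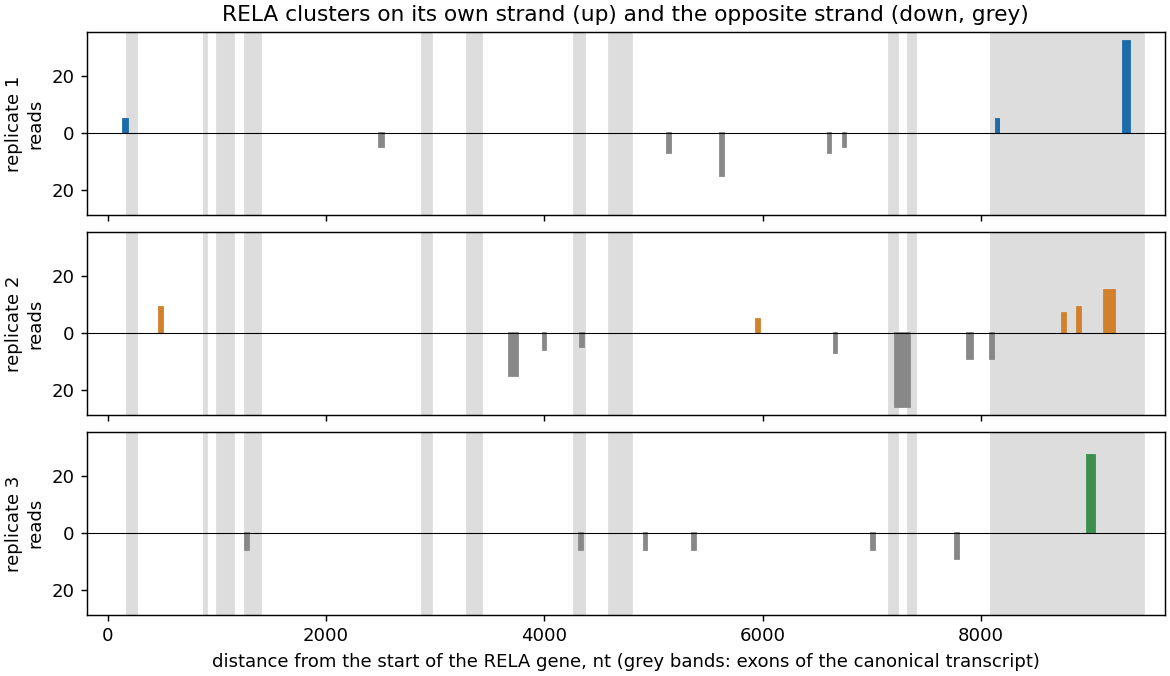
Reads per cluster (vertical axis) within RELA by distance from the gene start in nt, 1 panel per replicate, with the RELA strand drawn up and the opposite strand down; grey bands are exons of the canonical transcript. The leading clusters of the RELA strand, at 32, 15 and 27 reads, lie in the last exon at different places.

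NFKB1 encodes p105, the precursor of the p50 subunit of NF-kB. Its clusters numbered 4, 11 and 5 with 31, 86 and 49 reads, all in introns of the canonical transcript. The files class 1 cluster of replicate 1 and 1 of replicate 3, with 11 and 12 reads, as 5′ UTR, and both lie in intron 7 of that transcript. An overlap between replicates was found for 2 of the 20 clusters, a pair in intron 6 with 9 and 6 reads. Replicate 2 was high in clusters and reads, and was the only replicate with clusters in intron 1.

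**Figure D5:**
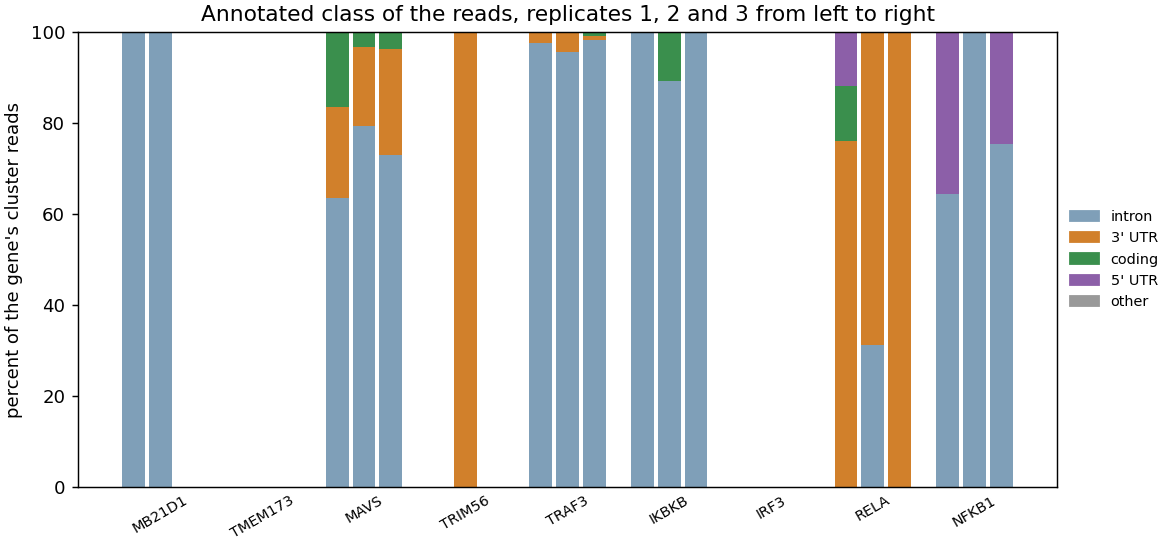
Percent of the reads of each gene (vertical axis) by the annotated class of the cluster, with bars for replicates 1, 2 and 3 from left to right and an empty place where a replicate had no cluster. RELA is the 1 gene with clusters in all 3 replicates whose bars are mostly 3′ UTR, at 68.9% to 100%.

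Over the 9 genes together, 86.0% ± 1.23 of clusters were intronic and 9.69% ± 1.32 lay in 3′ UTRs, against 83.5% ± 0.421 and 5.84% ± 0.411 of all gene-annotated clusters (SD, n = 3). TRAF3 held 162 of the intron clusters, and without it 73.1% ± 5.59 were intronic and 17.7% ± 3.49 lay in 3′ UTRs. MAVS held 17 of the 3′ UTR clusters and RELA 5, and IKBKB, NFKB1 and MB21D1 held none. The 3′ UTR sites of RELA were singled out when the genes were chosen. By reads, 3′ UTRs held 8.22% ± 1.44 in the 9 genes and 7.02% ± 0.566 in all gene-annotated clusters (SD, n = 3). The members' share by reads was higher in replicates 1 and 2 and lower in replicate 3, at 7.26% against 7.67%. Reads with T-to-C made up 87.6% ± 1.12 in members and 86.1% ± 0.634 in gene-annotated clusters (SD, n = 3). The ranges over replicates, 86.7% to 88.9% and 85.3% to 86.5%, did not overlap, but in replicate 1 the shares were 86.66% and 86.51%. Over all clusters, with or without a gene, replicate 1 had 86.75%, above the members. In replicates 2 and 3 all clusters had 85.5% and 86.6%, below the members.

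Of the 307 member clusters, 65 overlapped a cluster of another replicate. By replicate this was 22.7%, 18.3% and 23.3%, a mean of 21.4% ± 2.72 (SD, n = 3), beside 21.2% of all clusters. After clusters were moved along the chromosome by 200 nt, the members' share was still 20.01% ± 2.48. At 1000 nt it was 11.8% ± 1.28 and at 5000 nt 3.67% ± 1.16. The unmoved share and that at 200 nt lay within their spread, so the share alone does not show that the same sites recurred. The part of close spacing of clusters in it was not tested. MAVS gave 25 of the 65, TRAF3 30, IKBKB 8 and NFKB1 2, and the shares within these genes were 41.7%, 17.8%, 18.2% and 10%. The near equality of the total with the background thus joins a high share on MAVS with a share of 0 on RELA, MB21D1 and TRIM56. Clusters found again were longer and held more reads than the others, with medians of 48.0 and 39 nt and of 13.0 and 9 reads; over all clusters the medians were 47.0 and 37 nt and 12.0 and 8 reads.

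A wider set of 78 genes of these pathways, members included, held 40 genes with clusters in every replicate and 9 with clusters in 2. Another 7 had them in 1, and 22 had no cluster. Clusters in all 3 were held by 11 of 15 genes of the RIG-I-like receptor list, 8 of 15 of the cGAS-STING list and 13 of 20 of the NF-kB list. They were held by 4 of 17 other DNA and RNA sensors and 4 of 12 interferon regulatory factors and interferon receptor genes. The share over all protein-coding genes is the 40.7% given above. The median of the 40 was 1.54 reads per kb, and that of the 35 that are not members was 1.24, beside 1.54 for all genes with clusters in all 3.

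The genes of the wider set with most reads per 1000000, other than the members, were PRKDC, the DNA-dependent protein kinase (706 ± 34.6), SURF4, a cargo receptor of the endoplasmic reticulum (344 ± 100.3), and TRIM25, a ubiquitin ligase of the RIG-I branch (276 ± 134). PCBP2, an RNA-binding protein (247 ± 84.7), and TAB2, an adaptor of the kinase TAK1 (240 ± 46.9), came next (SD, n = 3 for each). Per kb SURF4, at 23.4 ± 6.81, and PCBP2, at 8.50 ± 2.91, had higher means than MAVS, at 6.39 ± 1.23. Of the 40 genes, 4 had a higher mean per kb than MAVS, and the others of these, RNF26 and PCBP1, are named after their values were seen.

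By the shares of reads in introns, 3′ UTRs, coding sequence and other classes, the nearest to MAVS of 39 genes compared were TRIM25, TRIM32 and TAB1, with 70.5%, 68.5% and 77.6% of reads in introns. The nearest to RELA were REL, MYD88 and STAT2, with 73.6%, 100% and 67.3% of reads in 3′ UTRs, against 81.7% on RELA. REL encodes another NF-kB subunit. These shares are means over 3 replicates.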

How the data were processed

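The authors deposited 1 table of read clusters per replicate, in which reads, distinct reads and conversion events are given as counts per the file headers, and conversion by read as a fraction from 0 to 1. The genome build is hg38, per the submitters' processing notes, and the sequence of each of 388807 clusters matched hg38 when starts and ends were taken as 1-based and inclusive. The aligner, cluster caller and annotation release are not given in the sources used here.

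The 9 genes and the wider lists were chosen with earlier results of these data known. Every member was named, with the 5 other genes of the lists with the largest geometric mean of normalised reads, the 3 nearest in class shares to MAVS and to RELA, every member site common to 3 replicates and the largest cluster of each member. Reads were normalised per 1000000 reads in gene-annotated clusters. Clusters overlapped if they shared at least 1 nt on 1 strand. Gene lengths, introns and UTRs came from GENCODE release 44 (canonical transcripts); 89.6% of gene names matched, older symbols through a RefSeq table. The difference in T-to-C within MAVS was tested with an exact sign-flip test over replicates. The same test was planned for RELA and is not given, since its 3′ UTR sites were singled out beforehand. The shared MAVS intron site was singled out beforehand too, and no conclusion is drawn from its test. That the replicates are biological is stated in the labels. The p-value of the MAVS test sets the mean of the differences within replicates against the means with their signs flipped. Python 3.11, pandas 2.3.3, numpy 2.4.6, scipy 1.17.1 and matplotlib 3.10.9 were used, and the overlap code was tested on simulated data. Alternatives were stricter clusters, a larger overlap, other moving distances, other weights and scalings, and each replicate left out. Leaving out TRAF3, leaving replicates out of the differences within MAVS and RELA, the printed stretches, the comparison of intron 1 with other introns and the grouping of clusters by gaps were chosen after seeing the data.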

Additional observations from a re-analysis of the deposited data

Results flagged for a closer look

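Reads on the strand opposite to a member appeared in data that the comparisons of sites on the genes' own strands do not use. Within IRF3 they numbered 95.7 ± 5.77 on average (SD, n = 3), on a gene with no listed read on its own strand. Within RELA they numbered 51.7 ± 21.9 on average, beside 38.0 ± 9.64 on its own strand (SD, n = 3). Clusters on the opposite strand were found again in another replicate in 8 of 19 cases for IRF3 and 2 of 18 for RELA. Which transcripts they come from was not tested.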

How the results depend on the processing

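Of 95 values recomputed for 25 results, 72 kept their direction and stayed within the spread between replicates or, for a count, within 1.5 times, 22 moved further and 1 reversed. The 5 members with clusters in all 3 replicates became 4 with at least 3 conversion locations (without NFKB1), 4 with at least 2 clusters per gene (without RELA) and 5 to 6 with 1 replicate left out. The reversed value is the MAVS difference in T-to-C between site 1 and the rest of the gene, -12.2 to 5.16 with 1 replicate left out and above 0 only without replicate 3. The percent of member clusters found in another replicate, 21.4, was 12.0 when 50% of both clusters had to overlap, 24.6 for clusters with at least the median reads, 26.2 without TRAF3 and 11.7 to 12.9 with 1 replicate left out, where only 1 other replicate remains to be matched. The percent in introns was 88.9 weighted by reads, 88.0 for clusters with at least the median reads and 73.1 without TRAF3. The percent in 3′ UTRs was 8.22, 8.12 and 17.7 under the same settings and 11.3 with at least 3 conversion locations. Reads with T-to-C were 100% as a median over clusters and 11.4% per T position, a different quantity. The RELA 3′ UTR share was 64.4% by number of clusters. For the other shifts the cause was not tested. Of the other values, 6 moved: those of TRAF3 and IKBKB under another scaling, distinct reads or stricter clusters, and the share found after clusters were moved along the chromosome, 11.8% at 1000 nt, 20.01% at 200 nt and 3.67% at 5000 nt. The listing limits of the tables and 3 replicates bound what could be seen. No paired analysis was possible because there is 1 group and no other to pair with it by replicate number; the differences within MAVS and RELA were taken inside each replicate.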
